A study of Mus musculus with 8 samples.

Results

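The fibroblast growth factor (FGF) receptors of mouse liver, their co-receptor beta-Klotho, 2 ligands that the liver makes and the adaptor that carries the signal inside the cell were followed here through acute activation of the nuclear receptor FXR. The 8 genes are Fgfr1, Fgfr2, Fgfr3 and Fgfr4, Klb (beta-Klotho), Fgf1, Fgf21 and Frs2. They were found by exact symbol, 1 gene row each, among the 25124 gene rows of the table. C57BL/6 mice, described by the study as male and with no age given in the sources used here, were fasted overnight and received 30 mg/kg GW4064, a synthetic FXR agonist, or vehicle for 1 h. For RNA-seq, wild-type livers gave 2 libraries per treatment, and each library pooled the liver RNA of 2 mice. For GRO-seq, which labels RNA as polymerases extend it in isolated nuclei and so reads ongoing transcription, the table holds 1 column for each of 2 genotypes and 2 treatments. More than a single animal per group is described for GRO-seq, and whether a column holds one of them, a pool or merged libraries is not given in the sources used here. Each column is called a library. The labels call the genotypes WT and FXR KO. The methods describe floxed mice without and with Albumin-Cre, a transgene that the study used to knock out Fxr in the liver. Which cells of the liver lose the receptor is not given in the sources used here. The genotypes are called Fxr-Flox and FXR KO here. The vehicle is DMSO in the labels and corn oil in the methods.

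FGF receptors are tyrosine kinases at the cell surface. Most FGFs act near the cell that secretes them and bind receptor together with heparan sulfate, whereas the endocrine FGFs, FGF21 among them, travel in blood and need a Klotho protein on the target cell. In the liver, FGFR4 paired with beta-Klotho receives FGF15 from the intestine and lowers bile acid synthesis, and FRS2 is the docking protein through which the activated receptors reach the RAS-MAPK cascade. FGF21 is a hormone that the liver releases in fasting. FXR, the product of Nr1h4, is the bile acid receptor, and it binds DNA with RXR, typically at inverted repeats of a 6-base half-site.

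The promoters of 4 of these genes are shown because their nascent transcription is compared between genotypes below. They are the 250 bases before the start in RefSeq (GRCm38.p6), read 5′ to 3′ on the strand of the gene. On either strand, capitals mark the nuclear receptor half-site AGGTCA, its variant form AGTTCA, the TATA box motif TATAAA, the E-box motif CACGTG and the GC box motif GGGCGG; in Fgf21 the last base of CACGTG is also the first base of a GC box.
Fgfr2 (chr7:130266809-130267058, minus strand): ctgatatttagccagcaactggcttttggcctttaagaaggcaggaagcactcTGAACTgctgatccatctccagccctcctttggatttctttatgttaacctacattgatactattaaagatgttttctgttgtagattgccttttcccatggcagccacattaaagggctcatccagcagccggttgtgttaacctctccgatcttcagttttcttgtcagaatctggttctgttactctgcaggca
Fgfr4 (chr13:55152568-55152817, plus strand): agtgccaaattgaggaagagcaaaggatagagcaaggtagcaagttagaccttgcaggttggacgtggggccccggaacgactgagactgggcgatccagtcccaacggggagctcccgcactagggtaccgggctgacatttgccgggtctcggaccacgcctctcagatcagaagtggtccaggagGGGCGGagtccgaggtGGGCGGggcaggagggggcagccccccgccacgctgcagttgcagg
Klb (chr5:65348161-65348410, plus strand): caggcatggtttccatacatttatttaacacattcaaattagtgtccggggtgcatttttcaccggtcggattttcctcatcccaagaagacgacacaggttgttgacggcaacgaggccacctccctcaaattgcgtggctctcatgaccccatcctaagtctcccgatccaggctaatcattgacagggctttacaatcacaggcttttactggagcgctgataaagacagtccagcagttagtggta
Fgf21 (chr7:45615491-45615740, minus strand): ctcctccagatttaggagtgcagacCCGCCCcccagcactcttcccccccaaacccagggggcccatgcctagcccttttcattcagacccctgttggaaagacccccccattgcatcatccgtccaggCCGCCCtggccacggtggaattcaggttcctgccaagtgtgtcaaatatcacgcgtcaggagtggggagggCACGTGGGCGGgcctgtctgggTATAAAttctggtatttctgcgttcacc

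The 4 promoters differed in make-up. G and C made up 44.0% of the Fgfr2 window, 48.0% of the Klb window, 59.6% of the Fgf21 window and 64.0% of the Fgfr4 window, against a median of 52.4% over 32851 such windows. The Fgfr2 window held 2 CpG and the Fgfr4 window 15. Fgf21 alone among the members with a window had a TATA box, 28 bases before its start, and an E-box that begins 50 bases before it; 12.4% and 6.02% of all windows hold these letters. Fgfr2 was the only member with AGTTCA, which begins 197 bases before the start on the opposite strand and is found in 11.8% of windows. AGGTCA, present in 14% of windows, was in none of the members' windows, and neither was its inverted or direct repeat with 1 base between the half-sites (0.00609% and 0.0335% of windows). GC boxes, in 32.7% of windows, were in those of Fgf21, Fgfr3, Fgfr4 and Frs2. Windows of 6 members were in the RefSeq table. The Fgfr2 window belongs to the longest gene model, and the start sites of the basic gene models in GENCODE lie 545 to 617 bases further into the gene.

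The values are RPKM (reads scaled to row length and to the mapped reads of the library) over the whole gene from first to last base, introns included. For Fgfr2 the row covered chr7:130162451-130266808 on the minus strand, 104.4 kb of which 9.60% is exonic in GENCODE. Introns likewise fill most of the rows of Fgf1 (chr18:38838673-38918699, minus strand, 6.28% exonic), Frs2 (chr10:117070127-117148474, minus strand, 10.2%), Klb (chr5:65348411-65384003, plus strand, 12.5%), Fgfr1 (chr8:25518759-25575718, plus strand, 17.0%) and Fgfr4 (chr13:55152818-55168759, plus strand, 21.1%). The exonic share was larger for Fgfr3 (chr5:33723772-33737068, plus strand, 46.3%) and Fgf21 (chr7:45613890-45615490, minus strand, 59.2%), the shortest row at 1.60 kb. RNA-seq over these rows therefore counts unspliced as well as spliced RNA.

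Total reads rebuilt from the RPKM steps were 13924469 to 14047252 in the RNA-seq libraries, 14173714 and 10593324 in Fxr-Flox GRO-seq (vehicle and GW4064), and 5141668 and 5069396 in FXR KO GRO-seq. The FXR KO values are thus the least precise. Hepatocyte markers were abundant in all 8 libraries, with Alb at 68.3 to 271.4 RPKM. The targeted gene, Nr1h4, was at 15.1 and 4.23 RPKM in Fxr-Flox GRO-seq and at 16.7 and 20.6 RPKM in FXR KO GRO-seq. Its whole-gene row was thus not lower in the FXR KO libraries. A row that counts reads outside the deleted part, whose position the sources used here do not give, cannot check the label. The study separately showed FXR protein levels in livers of both genotypes. Nr0b2, a known FXR target, stood at 3.65 and 36.6 RPKM in Fxr-Flox and at 0.118 and 1.19 RPKM in FXR KO.

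All 8 genes were expressed at low to moderate levels. The exonic share of their rows ran from 6.28% (Fgf1) to 59.2% (Fgf21). In RNA-seq, levels of different genes, and their order, therefore need not be those of spliced mRNA. In RNA-seq, Fgf21 had the highest level, with a mean of 6.87 RPKM over the 4 libraries (range 4.27 to 9.47), and Fgfr1 the lowest, at 0.393 RPKM (0.356 to 0.437). The other 6 genes had means between 1.76 RPKM (Frs2) and 2.54 RPKM (Fgf1). Their ranges overlapped from each gene to the next in order (Fgf1, Fgfr3, Klb, Fgfr2, Fgfr4, Frs2), while Fgf21 and Fgfr1 stood apart from their neighbours. The order of neighbours thus does not exceed the spread between libraries, which for Fgfr2 (0.923 to 3.01 RPKM) includes both treatments. Some genes further apart in the order did separate. Fgf1 (2.08 to 3.04 RPKM) lay above Fgfr4 (1.67 to 2.00) and Frs2 (1.66 to 1.92), and Fgfr3 (1.97 to 2.81) above Frs2. In the vehicle libraries Fgfr2 was below all members but Fgfr1, at 0.923 and 1.23 RPKM. In the GW4064 libraries it ranked next after Fgf21, at 3.01 and 2.98 RPKM, and its 2 values were above those of Fgfr3, the next gene. Among all gene rows, Fgfr2 lay above 62.0% and 66.7% of rows in the vehicle libraries and above 84.4% and 84.0% after GW4064. In GRO-seq, Fgf21 was no longer first. Its 4 values ranged from 0.740 to 2.55 RPKM, and those of its neighbours in order, Klb (1.11 to 1.67) and Fgfr3 (0.964 to 1.36), overlapped them. Fgfr1 was again the lowest, at 0.339 to 0.560 RPKM.

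**Figure D1:**
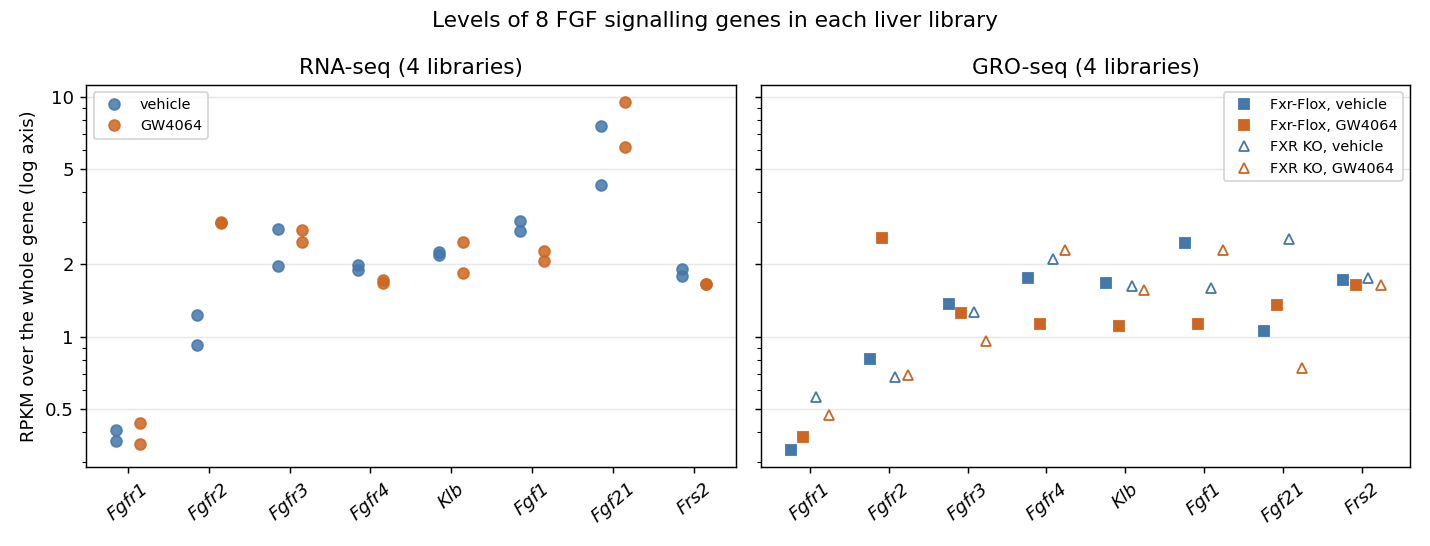
RPKM over the whole gene (log axis) of the 8 genes in each of the 4 RNA-seq libraries (left; circles, 2 per treatment) and the 4 GRO-seq libraries (right; squares Fxr-Flox, triangles FXR KO), with vehicle in blue and GW4064 in orange. Fgfr2 sits at 0.923 and 1.23 RPKM in vehicle RNA-seq and at 3.01 and 2.98 after GW4064; in GRO-seq its single high value, 2.59, is the Fxr-Flox GW4064 library.

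The first comparison asks which of these genes changed in wild-type liver 1 h after GW4064. Fgfr2 rose, and it was the only member called. Its RPKM was 0.923 and 1.23 with vehicle (mean 1.08 ± 0.220 SD, n = 2) and 3.01 and 2.98 with GW4064 (mean 3.0 ± 0.0170 SD, n = 2). Both treated libraries were more than the spread of the vehicle libraries above them, and the groups did not overlap. For this and the other members, non-overlap of 2 against 2 libraries is weak by itself. How many of all genes separate in this way was not computed. On log2(RPKM + 0.1) the change was 1.41 (SE 0.15), a 2.65-fold rise with a 95% interval of 2.00 to 3.52 (limma adjusted p = 0.0344). Of 11408 genes tested, 2.13% were called higher and 1.15% lower at adjusted p under 0.05, and among the 7 members tested 1 was called higher and 0 lower. By size of change Fgfr2 ranked 131 of all genes tested and 63 of the 243 called higher. The reads behind it numbered 1342 and 1809 with vehicle and 4372 and 4356 with GW4064.

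The direction of the Fgfr2 change held in every fit, while its call did not. When any 1 of the 4 libraries was left out, the limma fit on RPKM called 0 genes of the whole table, although 1608 to 1970 genes had an unadjusted p under 0.05; Fgfr2 then changed by 1.22 to 1.60 on the log2 scale with adjusted p of 0.0699 to 0.164. With limma-voom on the rebuilt reads, which uses the read depth behind each value, the rise was 2.81-fold (adjusted p = 0.00340), and it was called with each library left out in turn (adjusted p of 0.00922 to 0.0202). On simulated data the limma fit on RPKM called more unchanged genes than its threshold allows, and limma-voom called no unchanged gene, so adjusted p-values of the first may be too low. The simulated libraries had the same small spread beyond counting for every gene, whereas the real vehicle libraries differed by 1.34-fold for Fgfr2. The simulation therefore cannot show that limma-voom calls are safe with 2 pools per treatment.

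Among the other receptors, Fgfr4, the main FGF receptor of hepatocytes, was at 2.00 and 1.90 RPKM with vehicle and at 1.67 and 1.72 RPKM with GW4064. Both treated values were below both vehicle values, but the difference did not pass the test (0.875-fold, interval 0.785 to 0.975, limma adjusted p = 0.179). Fgfr3 was at 1.97 and 2.81 RPKM with vehicle and at 2.49 and 2.79 RPKM with GW4064. The treated values lay within the vehicle range (1.11-fold, interval 0.768 to 1.62, limma adjusted p = 0.690). Fgfr1, the receptor through which FGF21 acts in fat tissue, was at 0.410 and 0.369 RPKM with vehicle and at 0.356 and 0.437 RPKM with GW4064, and its mean was below the 0.5 RPKM required for testing. With that limit lowered to 0.1 RPKM its ratio was 1.01 (interval 0.786 to 1.30, limma adjusted p = 0.967). An antisense row, Gm16159, lies within Fgfr1 at 0.281 to 0.328 RPKM in RNA-seq, and reads of the 2 may not be separable.

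In RNA-seq, the share of Fgfr2 in the summed RPKM of the receptors was larger with GW4064. The summed RPKM of the 4 receptors was 5.30 and 6.32 with vehicle and 7.53 and 7.93 with GW4064. Fgfr2 made up 17.4% and 19.5% of it with vehicle and 40% and 37.6% with GW4064, while the share of Fgfr4 went from 37.7% and 30.1% to 22.2% and 21.7%. In Fxr-Flox GRO-seq the Fgfr2 share was 18.9% with vehicle and 48.4% with GW4064, and in FXR KO it was 14.7% and 15.6%. These shares add no test of their own, since the rise of Fgfr2 by itself lowers the shares of the rest. The exonic share of the rows also differs, from 9.60% for Fgfr2 to 46.3% for Fgfr3. Shares in RPKM therefore need not be shares of receptor mRNA.

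Klb, the beta-Klotho co-receptor of FGFR4, was at 2.19 and 2.25 RPKM with vehicle and at 1.84 and 2.48 RPKM with GW4064. The treated values lay on both sides of the vehicle values (0.965-fold, interval 0.714 to 1.30, limma adjusted p = 0.890). Frs2, the docking adaptor, was at 1.79 and 1.92 RPKM with vehicle and at 1.66 and 1.67 RPKM with GW4064 (0.904-fold, interval 0.804 to 1.02, adjusted p = 0.282 in limma). The Frs2 change was not called.

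Both ligands varied without a call in the fit on RPKM. Fgf1, a ligand of all FGF receptors, was at 3.04 and 2.75 RPKM with vehicle and at 2.29 and 2.08 RPKM with GW4064. The treated values were below the vehicle values in both libraries, 0.762-fold on average (interval 0.647 to 0.897) (limma adjusted p = 0.116). With limma-voom on rebuilt reads Fgf1 was called lower (0.753-fold, adjusted p = 0.0334), and among the 4 limma-voom fits that left out a library it was called without GW4064 replicate 1 alone (adjusted p = 0.0485). A row of the opposite strand, Gm5820, overlaps Fgf1 and stood at 0.0690 to 0.145 RPKM. Fgf21 was at 7.58 and 4.27 RPKM with vehicle and at 9.47 and 6.17 RPKM with GW4064. Its 2 vehicle libraries differed by 1.77-fold, which is more than the 1.34-fold difference between treatments (interval 0.653 to 2.74, limma adjusted p = 0.573). The 1.60 kb row held 96 to 211 reads per library.

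**Figure D2:**
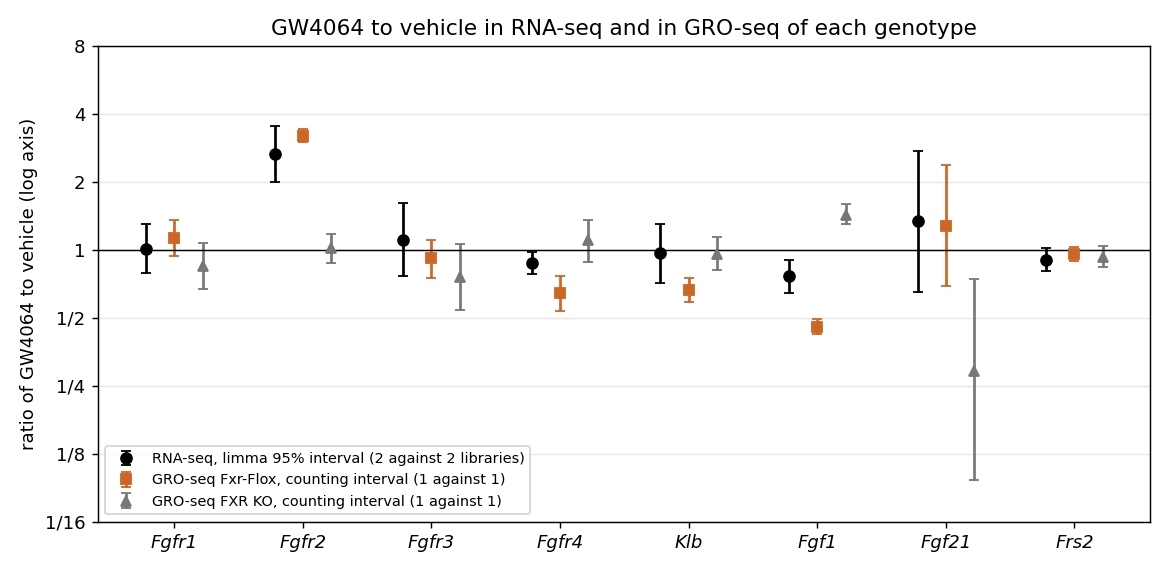
Ratio of GW4064 to vehicle (log axis) for each gene in RNA-seq (black circles; 95% interval of the limma fit, 2 against 2 libraries; Fgfr1 from the fit with the lower limit), Fxr-Flox GRO-seq (orange squares) and FXR KO GRO-seq (grey triangles); GRO-seq bars are exact binomial intervals that cover counting error only, for 1 library against 1. Fgfr2 is at 2.65 in RNA-seq, 3.20 in Fxr-Flox and 1.02 in FXR KO, and Fgf1 is at 0.762, 0.457 and 1.43.

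The second comparison asks whether transcription itself differed after GW4064 and whether it did so in livers labelled FXR KO. GRO-seq has 1 library per group here, so no test across libraries was possible, and the intervals, exact binomial at 95%, cover the counting of reads only. A gene was counted as past 1.5-fold on RPKM + 0.1 when it had a mean of at least 0.5 RPKM and at least 20 reads in 1 library of the pair. In Fxr-Flox 6.4% of 9690 genes were past 1.5-fold higher and 7.17% lower, and of the 7 members counted 1 was higher (Fgfr2) and 2 were lower (Fgf1 and Fgfr4). In FXR KO 2.88% of 9191 genes were higher and 3.44% lower, and of 7 members 0 were higher and 1 was lower (Fgf21). Fgf21 met the limit of 20 reads there only through its vehicle library (21 reads, against 6 with GW4064). It could thus be counted there only as lower, and the count is no support for a decrease. The median log2 ratio of all counted genes was -0.10 in Fxr-Flox and -0.03 in FXR KO.

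Nascent Fgfr2 stood at 0.808 RPKM in the vehicle library of Fxr-Flox and at 2.59 RPKM in its GW4064 library, a ratio of 3.20 (2.99 to 3.43, from 1195 and 2859 reads). In FXR KO it stood at 0.678 and 0.690 RPKM, a ratio of 1.02 (0.877 to 1.18, from 364 and 365 reads). With GW4064 the FXR KO library was at 0.267 of the Fxr-Flox library (0.239 to 0.298), while with vehicle it was at 0.839 (0.745 to 0.945). The Fxr-Flox library with GW4064 was thus the only one of the 4 that was high for Fgfr2. No other row lies within 15000 bases of Fgfr2, so no neighbouring gene in the table shares its reads.

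Fgfr4 and Klb, whose products form the FGF15 receptor, were both lower after GW4064 in Fxr-Flox. Fgfr4 went from 1.75 RPKM in the vehicle library to 1.12 RPKM, a ratio of 0.642 (0.537 to 0.765, from 396 and 190 reads). In FXR KO it was at 2.10 and 2.30 RPKM, a ratio of 1.10 (0.887 to 1.36). Klb was at 1.67 and 1.11 RPKM in Fxr-Flox, a ratio of 0.665 (0.590 to 0.749), which fell just short of the 1.5-fold limit once 0.1 RPKM was added (log2 ratio -0.55, against -0.60 for Fgfr4). With the median of all genes set to 0 Fgfr4 was short of it too, at -0.50. In FXR KO Klb was at 1.62 and 1.56 RPKM, a ratio of 0.963 (0.815 to 1.14). For both genes the Fxr-Flox GW4064 library was the lowest of the 4. The counting intervals of the 2 genotypes did not overlap, but they leave out the spread between libraries. How many of all counted genes separate in this way was not computed. Whether libraries of other mice would show the same for Fgfr4 and Klb was not tested.

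Fgf1 had the largest decrease of the members in Fxr-Flox, from 2.47 to 1.13 RPKM, a ratio of 0.457 (0.425 to 0.492, from 2799 and 957 reads). In FXR KO it was higher with GW4064, at 1.60 and 2.29 RPKM, a ratio of 1.43 (1.30 to 1.59). With vehicle the FXR KO library was itself at 0.647 of the Fxr-Flox library (0.593 to 0.705). The vehicle libraries of the 2 genotypes thus differed for Fgf1, and with GW4064 the order was turned, with FXR KO at 2.03 times Fxr-Flox (1.85 to 2.22). Fgf21 had few nascent reads. In Fxr-Flox it was at 1.06 and 1.36 RPKM, from 24 and 23 reads (ratio 1.28, 0.692 to 2.37). In FXR KO it was at 2.55 and 0.740 RPKM, from 21 and 6 reads (ratio 0.290, 0.0957 to 0.742). With vehicle, FXR KO was at 2.41 times Fxr-Flox (1.28 to 4.52).

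Frs2, Fgfr3 and Fgfr1 had counting intervals for GW4064 to vehicle that reached to both sides of 1 in both genotypes. Frs2 was at 1.72 and 1.65 RPKM in Fxr-Flox and 1.75 and 1.64 RPKM in FXR KO, so that its 4 libraries lay within 1.64 to 1.75 RPKM. Fgfr3 was at 1.36 and 1.25 RPKM in Fxr-Flox (ratio 0.916, 0.752 to 1.11) and 1.27 and 0.964 RPKM in FXR KO (ratio 0.757, 0.541 to 1.06). Fgfr1 was at 0.339 and 0.383 RPKM in Fxr-Flox and 0.560 and 0.474 RPKM in FXR KO, and with vehicle FXR KO was at 1.65 times Fxr-Flox (1.35 to 2.01).

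**Figure D3:**
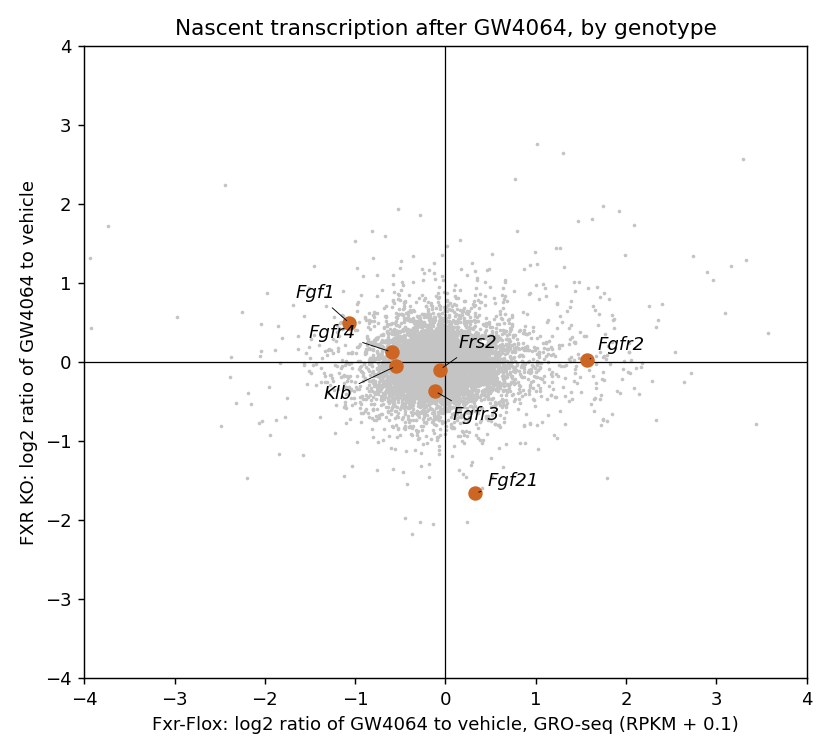
GRO-seq log2 ratio of GW4064 to vehicle (RPKM + 0.1) in Fxr-Flox (x axis) against FXR KO (y axis) for the 9191 genes counted in both, with 7 members in orange and 3 genes outside the axes. Fgfr2 lies far right near the horizontal line (1.56 and 0.02), Fgf1 upper left (-1.06 and 0.49), and Fgf21 low (0.33 and -1.66).

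Between the genotypes, with vehicle 6.14% of 9656 genes were past 1.5-fold higher in FXR KO and 6.08% lower, and of 7 members Fgf21 was higher and Fgf1 lower. With GW4064 6.87% of 9547 genes were higher and 8.24% lower, and of 7 members Fgfr4 (ratio 2.05, 1.66 to 2.52) and Fgf1 were higher and Fgfr2 and Fgf21 lower. The Fgf21 ratio, 0.545 from 23 and 6 reads, had an interval that spans 1 (0.182 to 1.38). Fgf21 met the read limit in that pair only through the Fxr-Flox library. These comparisons reuse the libraries of the comparison before and add no independent evidence.

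Genes whose pattern over the 8 libraries was most like that of a member were found by the distance between log2(RPKM + 0.1) profiles, after the mean of each assay was subtracted. Nearest to Fgfr2 were Crls1, which makes cardiolipin, Nrip1, a nuclear receptor corepressor, and Setd4, with distances of 0.39, 0.41 and 0.43 against a median of 2.12 over 7144 genes. Crls1 went from 2.07 to 7.36 RPKM in Fxr-Flox GRO-seq and stood at 1.58 and 1.62 RPKM in FXR KO. Nearest to Fgf1 were Acsm3, Rbm47 and Gpc4 (distances of 0.21, 0.30 and 0.30, median 1.00). Acsm3 stood at 6.18 and 2.67 RPKM in Fxr-Flox and 3.91 and 5.28 RPKM in FXR KO. It was chosen for its nearness to Fgf1 in these libraries, so sharing the directions of Fgf1 adds no support for them. Nearest to Fgfr4 were Cenpx, Slc26a1 and Tfrc (0.12, 0.19 and 0.19, median 0.85). Those nearest to Klb were Hist1h1e, Serpina11 and Slc6a9 (0.18, 0.18 and 0.19, median 0.63). Frs2, which hardly varied, had Fubp3, Ube2h and Osbpl2 at 0.06 to 0.08, and Fgfr3 had Rpl35a, Lamtor5 and Gnpnat1 at 0.14 to 0.23. Fgf21 had no close match; its nearest genes, Serpina3g, Mup9 and 4933421O10Rik, were 0.77 to 0.87 away. Profiles share the libraries and their depth, and nearness in them is a description.

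The wider FGF pathway was read through 7 lists with 122 genes in the table besides the members. Of the 85 genes tested in RNA-seq, 3 rose, 3 fell and 79 were not called, with a median log2 change of -0.01, against 0.00 for all genes tested (2.13% called higher and 1.15% lower). The 3 that rose were Ier2, Bhlhe40 and Nr0b2, and the 3 that fell were Ppara, Rxra and Nr1h4. None of these 6 calls held in limma on RPKM when a library was left out. In that fit no member of the lists of ligands, co-receptors, adaptors or feedback inhibitors was called. Limma-voom on rebuilt reads called 17 of the 85 pathway genes, beside 1047 of all 11408 genes tested (541 higher and 506 lower). Whether these shares differ was not tested. Among the 17 were 5 of 13 co-receptors and proteoglycans (2 higher and 3 lower) and 1 of 24 adaptors (Crk, higher). Of 12 feedback inhibitors 2 were called (Cblb higher and Dusp6 lower).

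Of 20 other FGF ligand genes, 9 had no read in RNA-seq, Fgf15 among them, and 0 reached the level required for testing; the highest mean was 0.152 RPKM, that of Fgf11. Of the FGF ligand genes looked up, Fgf1 and Fgf21 were thus the only ones that reached it. Of the co-receptors and heparan sulfate proteoglycans, 13 of 18 were tested and 0 called by limma on RPKM, with a median log2 change of -0.08. Gpc4, a glypican, was at 1.60 and 1.56 RPKM with vehicle and at 1.11 and 0.940 RPKM with GW4064 (0.668-fold, limma adjusted p = 0.0767). In GRO-seq it stood at 2.17 and 0.937 RPKM in Fxr-Flox and 1.2 and 1.65 RPKM in FXR KO. Sdc1, the syndecan of the hepatocyte surface, was at 6.96 and 6.38 RPKM with vehicle and at 8.76 and 8.76 RPKM with GW4064 (1.31-fold, limma adjusted p = 0.0821), and at 2.34 and 5.21 RPKM in Fxr-Flox GRO-seq. In FXR KO it was at 2.33 and 3.36 RPKM, a ratio of 1.44 (1.23 to 1.69). Sdc2, another syndecan, was past 1.5-fold lower in Fxr-Flox GRO-seq (ratio 0.649, 0.626 to 0.674) and level in FXR KO (0.969, 0.920 to 1.02).

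All 24 adaptors and members of the RAS-MAPK cascade were tested and 0 were called by limma on RPKM, with changes between -0.25 and 0.24 on the log2 scale. Their smallest p-values were those of Crk (1.18-fold, limma adjusted p = 0.115) and Plcg1, which FGF receptors bind directly (0.840-fold, limma adjusted p = 0.136). Stat3 was past 1.5-fold higher in Fxr-Flox GRO-seq, at 3.93 and 6.65 RPKM, while its RNA-seq ratio was 0.911 (limma adjusted p = 0.353). Of the feedback inhibitors, several of which ERK signalling induces, 12 of 17 were tested and 0 called by limma on RPKM. Dusp6, the phosphatase that switches ERK off, had the largest change among them, from 7.96 and 8.16 RPKM with vehicle to 4.52 and 5.49 RPKM with GW4064 (0.623-fold, interval 0.501 to 0.774, limma adjusted p = 0.0744, limma-voom adjusted p = 0.0140). Its nascent signal was 3.69 and 1.97 RPKM in Fxr-Flox and 2.60 and 3.24 RPKM in FXR KO. Spred1 was also past 1.5-fold lower in Fxr-Flox (1.5 and 0.830 RPKM), and Cblb, a ubiquitin ligase of receptor kinases, was at 1.63 and 2.30 RPKM there (RNA-seq 1.23-fold, limma adjusted p = 0.108, limma-voom adjusted p = 0.0359).

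Of the ERK-responsive transcription factors, 12 of 19 were tested. Ier2, an immediate early gene, rose 1.84-fold (4.77 to 5.19 RPKM with vehicle, 8.64 to 9.87 with GW4064, limma adjusted p = 0.0373) and 11 were not called; Jun was at 1.99-fold (limma adjusted p = 0.109). In Fxr-Flox GRO-seq Fos, Jun, Junb and Ier2 were past 1.5-fold higher and Myc lower, of 10 counted (6.4% and 7.17% of all genes). In FXR KO Fos was higher (ratio 3.04, 1.25 to 8.47, from 7 and 21 reads) and Egr1 lower (0.571, 0.407 to 0.795), of 9 counted (2.88% and 3.44% of all genes). Stress also induces these genes, and the list does not read FGF signalling alone. Of the 17 regulators of Fgf21 transcription, Ppara, the fasting receptor that drives Fgf21, fell (0.729-fold, limma adjusted p = 0.0492), and so did Rxra, its partner (0.710-fold, limma adjusted p = 0.0358), and Nr1h4 (0.419-fold, limma adjusted p = 0.0149). Bhlhe40, a clock repressor, rose 1.65-fold (limma adjusted p = 0.0273). Its nascent ratio was 2.14 (1.88 to 2.44) in Fxr-Flox and 2.00 (1.65 to 2.43) in FXR KO. Nascent Ppara was at 17.8 and 10.4 RPKM in Fxr-Flox and 14.5 and 15.1 RPKM in FXR KO. Creb3l3 and Rora were past 1.5-fold higher in Fxr-Flox (ratios of 1.57 and 1.56) and were not called in RNA-seq.

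The readout of FGFR4 with beta-Klotho in hepatocytes is bile acid synthesis, which is also a readout of FXR itself. Of the 7 genes in that list Nr0b2, the repressor SHP, rose 5.81-fold (interval 3.42 to 9.85, limma adjusted p = 0.0368) and 6 were not called. In GRO-seq Nr0b2 was past 1.5-fold higher with GW4064 in both genotypes. In FXR KO it met the read limit only through the GW4064 library (20 reads, against 2 with vehicle), so it could be counted there only as higher. Cyp7a1, the rate-limiting enzyme, was at 13.8 and 16.4 RPKM with vehicle and at 9.67 and 12.6 RPKM with GW4064 (0.735-fold, limma adjusted p = 0.262). Its nascent level was 14.4 and 3.83 RPKM in Fxr-Flox and 49.8 and 55.4 RPKM in FXR KO. Cyp7b1 was lower with GW4064 in both genotypes in GRO-seq (ratios of 0.328 and 0.438). Nr5a2, the activator LRH-1, was at 3.60 and 2.30 RPKM in Fxr-Flox and 2.76 and 3.15 RPKM in FXR KO, with a limma adjusted p of 0.0558 in RNA-seq. Cyp8b1 was past 1.5-fold higher in Fxr-Flox (ratio 1.51) and lower with GW4064 in FXR KO (0.702).

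**Figure D4:**
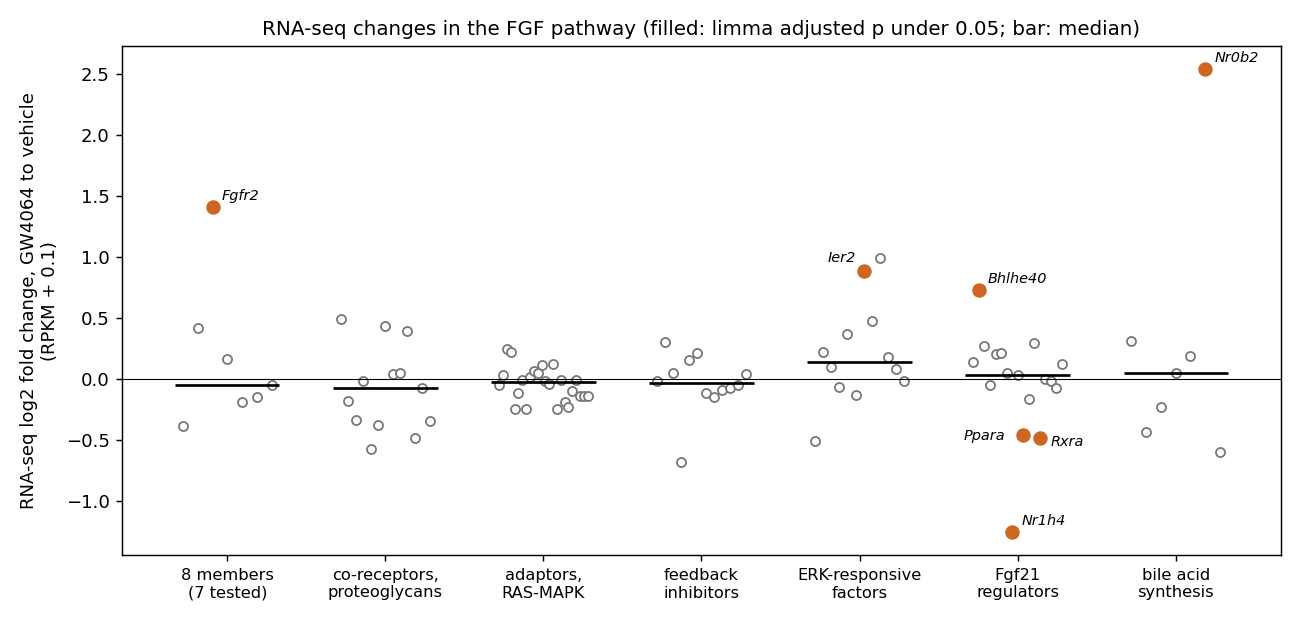
RNA-seq log2 fold change of GW4064 to vehicle (RPKM + 0.1) for the 7 members tested and for the tested genes of 6 FGF pathway lists; filled orange points passed limma at adjusted p under 0.05, open points did not, and the bar is the median. Fgfr2 (1.41) is the only filled point among the members, and the co-receptor, adaptor and feedback lists hold none.

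Bulk liver cannot tell fewer cells of a type from less RNA per cell. Cholangiocytes express Fgfr2, and their 8 markers summed to 5.86 and 6.83 RPKM with vehicle and at 4.43 and 8.22 RPKM with GW4064. These sums overlapped between treatments, with 0 of 3 tested markers called, and Krt7, Epcam and Cftr did not pass 0.227 RPKM in any RNA-seq library. The 12 stellate cell and fibroblast markers summed to 13.9 and 13.3 RPKM with vehicle and at 12 and 14.9 RPKM with GW4064; 1 of 10 tested, Hand2, was called lower and 0 higher. In Fxr-Flox GRO-seq, where Fgfr2 was 3.20 times higher with GW4064, the cholangiocyte sum was 3.57 and 3.24 RPKM and the stellate sum 6.68 and 5.17 RPKM.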

How the data were processed

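RNA-seq and GRO-seq of mouse liver were deposited as 1 table with 8 library columns, all used. Per the methods and the submitters' processing notes, the authors mapped reads to mm10 with STAR 2.7.3a and took gene values from HOMER, and the notes also list bcl2fastq and FastQC. The deposited values are RPKM over whole gene rows, with 2 columns per RNA-seq group and 1 per GRO-seq group. Reads per row were rebuilt from the RPKM steps; 100% of testable values came out whole within 0.15 read in each library. Library totals include reads outside gene rows, and 89.2% to 92.4% of reads were in rows.

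RNA-seq genes whose 4 libraries averaged 0.5 RPKM or more were fitted as log2(RPKM + 0.1) with limma 3.58.1 (treatment only, eBayes trend=TRUE, Benjamini-Hochberg over 11408 genes, adjusted p under 0.05) in R 4.3.3 with statmod 1.5.0. Fold changes on this scale understate those of low genes. Whether the libraries are separate biological samples rests on the pooling described by the study; p-values measure the spread between 2 pools per treatment. GRO-seq ratios carry exact binomial intervals at 95% from scipy 1.17.1. These cover counting error only, since reads carry no molecular identifiers. Other tools were Python 3.11.15, numpy 2.4.6, pandas 2.3.3 and matplotlib 3.10.9. Both limma fits were tested on simulated data, where the fit on RPKM called more unchanged genes than its threshold allows and limma-voom called no unchanged gene. The simulated spread was small and the same for every gene, so it does not stand for that of the real libraries. Replicate numbers did not pair the libraries (correlation of deviations -0.0215).

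The members and lists were chosen with earlier results of these data known. Genes named are the 8 members, each list gene called in RNA-seq, the 2 smallest p of each list, up to 5 list genes per list past 1.5-fold in Fxr-Flox GRO-seq, Nr1h4, and for each member averaging 0.5 RPKM or more in both assays the 3 genes of nearest profile among those averaging 1 RPKM or more in both. Overlapping rows and cell type markers were also named. Promoters are from RefSeq (GRCm38.p6) and exons from GENCODE. Alternatives tried were other pseudocounts, filters, scalings, row lengths and folds, a replicate block, limma-voom and leaving out each library.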

Additional observations from a re-analysis of the deposited data

Results flagged for a closer look

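In GRO-seq, Fgf1, Fgfr4 and Fgf21 had opposite directions with GW4064 in Fxr-Flox and FXR KO. How many of all counted genes do so was not computed, so this is not shown to be particular to the members. The directions rest on 1 library per group, and the difference between genotypes was not tested. The log2 ratio of Fgf1 was -1.06 in Fxr-Flox and 0.49 in FXR KO, a difference of -1.56, and both counting intervals lay away from a ratio of 1. That of Fgfr4 was -0.60 and 0.13, a difference of -0.73, and the FXR KO interval reached to both sides of 1. That of Fgf21 was 0.33 and -1.66, a difference of 1.99, from 24, 23, 21 and 6 reads, and the Fxr-Flox interval reached to both sides of 1. In FXR KO Fgf21 met the read limit only through the vehicle library.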

How the results depend on the processing

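The Fgfr2 log2 fold change in RNA-seq stayed positive in all 22 fits (0.95 to 1.70; adjusted p of 0.00340 to 0.164). With the replicate block, limma called 0 members, 0 pathway genes and 0 genes in all, although 2327 genes had an unadjusted p under 0.05, and Fgfr2 had an adjusted p of 0.0848; limma-voom with the replicate block called 2, 16 and 1013. Replicate numbers are shared by name only. With no filter on low values limma called 0 members and 3 pathway genes. Leaving out 1 library gave 0 to 2 members, 0 to 11 pathway genes and 0 to 673 genes called, with 0 in each of the 4 fits on RPKM and 260, 342, 643 and 673 with limma-voom. Limma-voom called 2 members (Fgfr2 and Fgf1), 17 pathway genes and 1047 genes (541 higher and 506 lower, against 243 and 131 on RPKM). With its filter lowered to a mean of 0.01 RPKM it called 12 pathway genes and 834 genes. Rows of at least 300 bases gave 11 pathway genes and 734 genes. The limma-voom fits with a block, with the lowered filter or without a library were chosen after seeing the data. Without a library, the sign turned for 5 genes that were not called. On RPKM the log2 change ranged from -0.09 to 0.40 for Fgfr3, -0.26 to 0.15 for Klb, -0.85 to 0.39 for Cyp7b1, -0.03 to 0.12 for Cyp8b1 and -0.18 to 0.34 for Myc. The turned values with limma-voom were -0.09 for Fgfr3, 0.16 for Klb, 0.40 for Cyp7b1, -0.03 and -0.02 for Cyp8b1 and -0.19 for Myc.

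In GRO-seq, the number of members past the limit in FXR KO against Fxr-Flox went from 2 to 1 with vehicle (a pseudocount of 1 RPKM, median centring, or a 2-fold limit) and from 4 to 1 with GW4064 at 2-fold. No member counted as past 1.5-fold changed direction under the pseudocounts or the centring. The 2 RNA-seq libraries per treatment and the FXR KO GRO-seq depth of 5069396 and 5141668 reads limit what could be seen for Fgf21 and Fgfr1. The causes of these shifts were not tested.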
